A study of Mus musculus with 6 samples.

Results

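The 7 genes described here encode proteins of the tight junction at the borders of the brain. They are the claudins *Cldn1*, *Cldn2*, *Cldn5*, *Cldn10* and *Cldn12*, the membrane protein occludin (*Ocln*) and the scaffold protein ZO-1 (*Tjp1*). They were chosen by name, and each symbol was found once in the gene list of all 6 libraries, as 7 of the 31053 genes listed for the cortex and of the 27998 listed for the hippocampus. Prep 1 came from the cerebral cortices of 3 female wild-type C57Bl/6J mice aged 3 weeks, and prep 3 came from the hippocampi of 3 female wild-type C57Bl/6J mice aged 5 weeks. No mouse carried a transgene or a deletion, and all tissue was digested with dispase II, papain and DNase I, with white matter trimmed away and myelin debris removed on Percoll. The cells of the 3 mice were then pooled into 1 suspension, which was run as 3 technical replicates by droplet-based single-cell RNA-seq (scRNA-seq). Each region was therefore 1 biological sample, so that no test between groups could be made. Region, age, preparation and the gene list used for counting, which differed between the preparations, cannot be told apart. Errors below are the standard deviation (SD) over the 3 technical replicates and exact 95% intervals. The SD covers technical and counting error. The intervals rest on summed UMIs and cover counting error only, not the spread between replicates. Neither covers differences between mice.

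Tight junctions seal the space between neighbouring cells. Claudins span the membrane of both partners and set which ions and small molecules may pass, occludin joins them in the strands, and ZO-1 ties the strands to the actin skeleton beneath. In the brain, the endothelium of the blood vessels forms the blood-brain barrier with claudin-5 as its best known claudin, whereas at the choroid plexus the vessels are leaky and the epithelium around them carries the barrier to the cerebrospinal fluid. Ependymal cells line the ventricles, fibroblasts lie in the meninges and around larger vessels, and astrocytes surround the vessels with their endfeet.

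The cortical libraries held 5834 to 6121 barcodes and 39662203 to 42097490 unique molecular identifiers (UMIs, each one counted transcript), and the hippocampal libraries held 4894 to 5232 barcodes and 43963706 to 50024850 UMIs. After filtering, 13320 cortical and 14210 hippocampal cells were clustered, with all junction genes kept out of the genes used for clustering, and clusters were named from marker lists that held none of the members. The endothelial-like class held 2692 cortical and 2150 hippocampal cells, the astrocyte-like class 2733 and 1876, and the fibroblast-like class 57 and 48. Clusters named epithelial-like, for the choroid plexus (825 cells), and ependymal-like (211 cells) were formed in the hippocampus, and no cortical cluster received either name. *Ttr*, which encodes transthyretin and marks choroid plexus epithelium, stood at 256894 CPM (CPM being the UMIs of a gene scaled to the same total of UMIs in every class) in the epithelial-like class, against 190 CPM in hippocampal endothelial-like cells. Single cortical cells held it too, such as 11 cells with 9687 UMIs of *Ttr* in all, which lay in an unnamed cluster. Barcodes that occurred in more than 1 library of a preparation were rare in the cortex, where they made up 71 of the cells kept. They made up 749 of the hippocampal cells kept, including 67.6% of the epithelial-like and 21.3% of the ependymal-like cells, so that the levels of *Cldn1*, *Cldn2*, *Ocln* and *Tjp1* in epithelial-like cells, and of *Ocln* and *Tjp1* in ependymal-like cells, are given with and without them. For *Cldn5*, *Cldn10* and *Cldn12* the levels without them were 31.6, 3.64 and 6.48 CPM in epithelial-like and 89.9, 5.21 and 14.98 CPM in ependymal-like cells. A level below is always the CPM of 1 gene over the summed cells of a class. Because the libraries read the 3′ end of transcripts and levels were not set per length, each gene was compared between classes and never with another gene.

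The members lie on 6 chromosomes of the mouse genome (GRCm38). *Cldn5* (chr16:18776847-18778262, plus strand) and *Cldn1* (chr16:26356642-26371841, minus strand) share chromosome 16. *Cldn2* is at chrX:139800828-139811386 (plus strand), *Cldn10* at chr14:118787908-118875489 (plus strand) and *Cldn12* at chr5:5489537-5514958 (minus strand). *Ocln* is at chr13:100496507-100552718 (minus strand) and *Tjp1* at chr7:65296165-65527781 (minus strand). No exon of a member overlapped an exon of another counted gene. The 250 bases before the transcription start in RefSeq are shown for the member claudin highest in endothelial-like and the pair highest in epithelial-like cells. The levels of these members separated most sharply between the endothelium and the choroid plexus epithelium. The sequences run 5′ to 3′ on the strand of the gene, at chr16:18776597-18776846 (plus strand) for *Cldn5*, chr16:26371840-26372089 (minus strand) for *Cldn1* and chrX:139800558-139800807 (plus strand) for *Cldn2*, and capitals mark the letters of the motifs searched.

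Cldn5: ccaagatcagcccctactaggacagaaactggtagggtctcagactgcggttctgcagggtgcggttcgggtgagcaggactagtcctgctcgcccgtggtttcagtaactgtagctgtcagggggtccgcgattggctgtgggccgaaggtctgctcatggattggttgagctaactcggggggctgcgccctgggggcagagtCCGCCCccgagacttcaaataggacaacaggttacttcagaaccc
Cldn1: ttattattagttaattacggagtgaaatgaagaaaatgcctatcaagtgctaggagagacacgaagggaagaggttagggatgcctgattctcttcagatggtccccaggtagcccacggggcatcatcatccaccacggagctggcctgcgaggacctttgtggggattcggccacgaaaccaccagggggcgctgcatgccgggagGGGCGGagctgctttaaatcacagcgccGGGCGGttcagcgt
Cldn2: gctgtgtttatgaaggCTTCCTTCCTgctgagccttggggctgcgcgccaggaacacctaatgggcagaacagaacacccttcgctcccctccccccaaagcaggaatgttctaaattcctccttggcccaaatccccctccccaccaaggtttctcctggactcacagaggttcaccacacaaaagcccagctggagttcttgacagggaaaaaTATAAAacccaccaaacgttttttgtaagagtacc

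The motifs of 4 factors or boxes were searched on both strands. The GC box (GGGCGG) occurred once in the *Cldn5* window and at 2 places in the *Cldn1* window, and it was present in 32.7% of the 32851 RefSeq promoter windows of the same length. The *Cldn2* window held no GC box but a TATA box (TATAAA, in 12.4% of all windows) and 2 overlapping copies of the core bound by ETS factors (AGGAAG, in 29.5% of all windows). The core bound by SOX factors (ACAATG, in 10.7% of all windows) was in none of the 3 windows. These matches describe the letters of the windows only.

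*Cldn5*, *Ocln* and *Tjp1* were the 3 members whose highest level was in endothelial-like cells, in both preparations. Their number stayed at 3 under all 14 alternatives in which the classes were rebuilt or rescaled. *Cldn10* was highest in astrocyte-like cells, *Cldn1* and *Cldn2* were highest in epithelial-like cells where that class was present, and *Cldn12* did not exceed 15.97 CPM in any class. The plot of levels by class shows these patterns for each library.

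**Figure D1:**
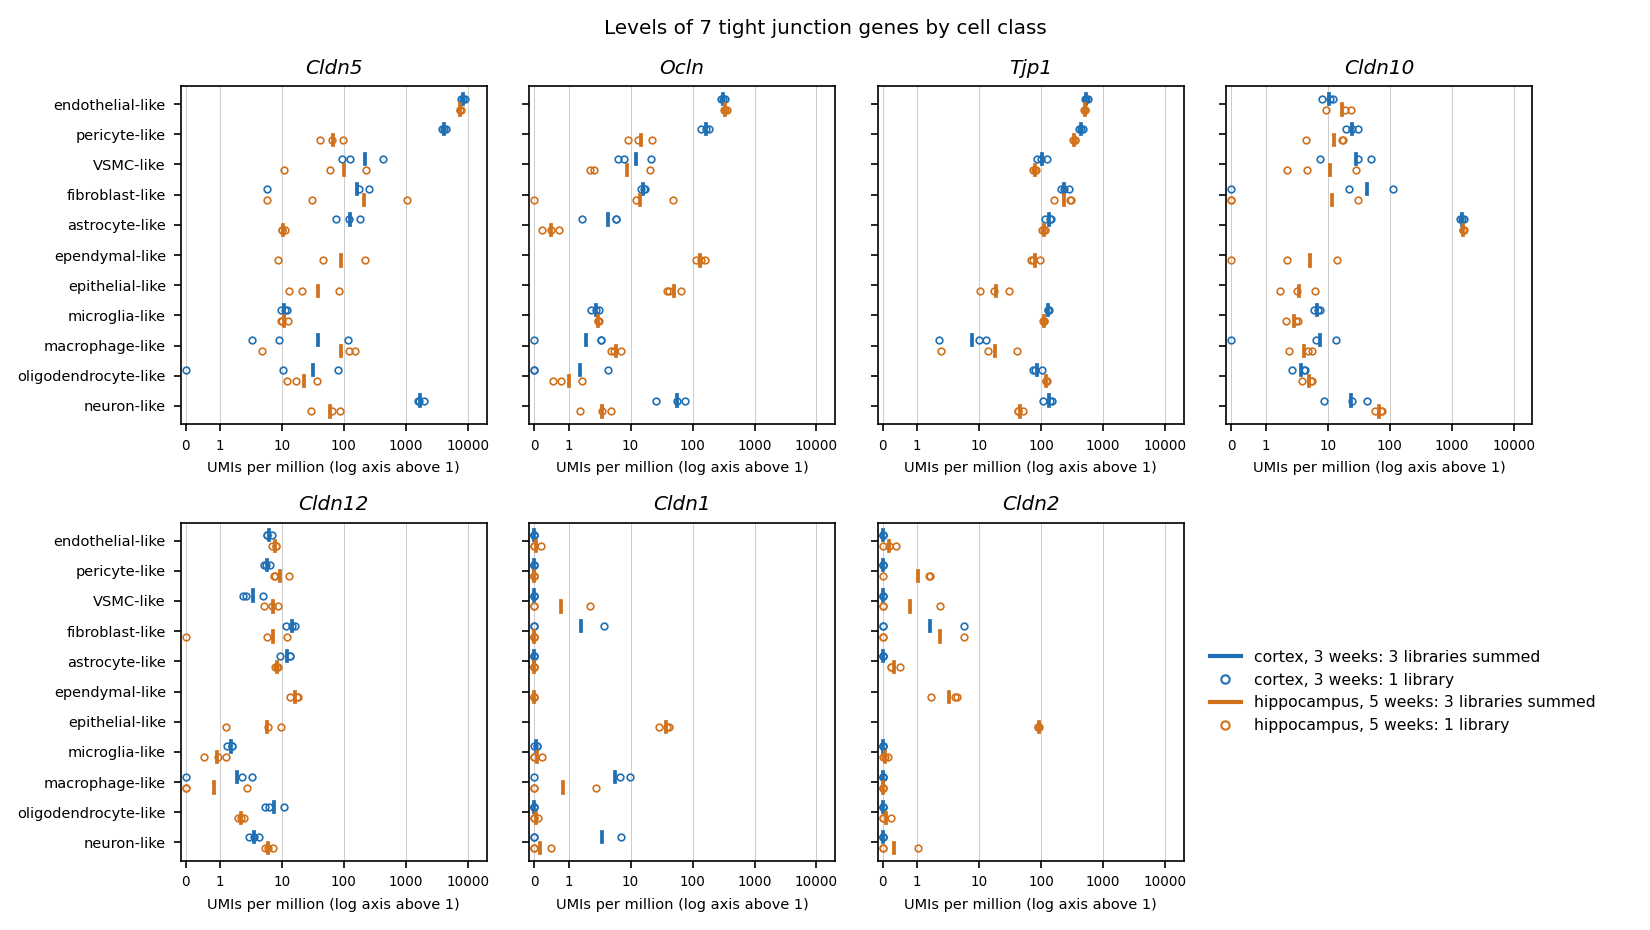
Level of each of the 7 genes (CPM, log axis above 1) in named cell classes of the cortex (prep 1) and the hippocampus (prep 3). Open points are the 3 technical replicates and the line marks the 3 libraries summed. Classes named for erythroid cells, monocytes, B cells, T or NK cells and oligodendrocyte precursors are not drawn. *Cldn5* separates the endothelial-like class from the other named classes in the hippocampus (7563 CPM). *Tjp1* is spread over most classes, while *Cldn10* stands out in astrocyte-like cells (1470 and 1535 CPM).

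*Cldn5*, which encodes the claudin that seals brain endothelium against small molecules, stood at 7752, 8497 and 9054 CPM in the 3 cortical libraries of endothelial-like cells (8421 CPM summed, SD 653). In the hippocampal libraries it stood at 7691, 7492 and 7506 CPM (7563 CPM summed, SD 111). It was detected in 100% of cortical and 98.4% of hippocampal endothelial-like cells, and after every cell was thinned to 1000 UMIs the shares were 99.6% and 98.1%. In microglia-like cells, which should lack the gene, the thinned shares were 1.07% and 1.26%, and the levels were 10.9 and 10.7 CPM. The median depths were 7066 and 6633.5 UMIs per cell in endothelial-like and 5472 and 6644.5 UMIs in microglia-like cells, and thinning left out 1 and 88 endothelial-like and 77 and 22 microglia-like cells. The libraries of the endothelial-like class thus lay far above the microglia-like level in either preparation. The part of free RNA in these levels was not tested.

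The next named class in the order of *Cldn5* levels differed between the preparations. In the hippocampus the endothelial-like level was 35.3-fold that of the next named class, fibroblast-like cells, in which 1 library set the level. Pericyte-like cells stood at 67.3 CPM there. An unnamed hippocampal cluster of 177 cells, with endothelial and pericyte markers, held *Cldn5* at 4132 CPM and was left out of this order. The hippocampal margin thus depends on which clusters received a name. In the cortex the margin was 2.05-fold, over pericyte-like cells at 3776, 4367 and 4125 CPM (4104 CPM summed). The 12 endothelial markers used for naming moved with this level, because their sum in cortical pericyte-like cells was 55.9% of the endothelial-like level while *Cldn5* was at 48.7% of it. In hippocampal pericyte-like cells the marker sum was 2.20% and *Cldn5* was at 0.890%. Cortical erythroid-like cells (1767 CPM) and neuron-like cells (1702 CPM, with the marker sum at 17.1%) also carried the gene. The part of endothelial RNA in these cortical levels was not tested further.

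Outside the vessel wall, *Cldn5* was low and uneven between libraries. Fibroblast-like cells stood at 5.74, 175 and 249.6 CPM in the cortex and at 1024, 5.67 and 30.2 CPM in the hippocampus, so that 1 library carried most of the hippocampal sum of 214 CPM, and without replicate 1 the level was 17.5 CPM. Ependymal-like cells stood at 46.3, 219 and 8.67 CPM, or at 6.83 CPM without called doublets (2 cells sharing a droplet), and epithelial-like cells at 12.77, 21.005 and 82.77 CPM. In these classes the libraries spread too widely for the level to be ordered. Astrocyte-like cells stood at 74.5, 184 and 121 CPM in the cortex (126 CPM summed) and at 10.4 CPM summed in the hippocampus. In the cortex 2085 of the 2240 UMIs lay in a cluster of 36 cells, every one of which was called a doublet, and without called doublets the level was 8.23 CPM.

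*Ocln*, which encodes occludin, stood at 292, 315 and 331 CPM in cortical endothelial-like cells (312 CPM summed, SD 19.7). In hippocampal endothelial-like cells it stood at 353, 339 and 319 CPM (337 CPM summed, SD 17.2). It was detected in 86.5% and 79.5% of these cells, or in 27.6% and 29.4% of them at 1000 UMIs, against 0.279% and 0.357% of microglia-like cells. The libraries of both preparations overlapped in range.

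Ependymal-like cells were the second class in the order of hippocampal *Ocln* levels, at 112, 156 and 134 CPM (133 CPM summed, SD 22.03). Every library lay below the endothelial-like libraries, and the ratio to the endothelial-like level was 0.394 (0.342 to 0.453). Epithelial-like cells stood at 65.6, 42.0 and 39.3 CPM (50.6 CPM summed, SD 14.5), a ratio of 0.150 (0.127 to 0.177) to the endothelial-like level. The sum of the endothelial markers was 4.30% of the endothelial-like level in ependymal-like cells, where *Ocln* was at 39.4%, and 1.23% in epithelial-like cells, where *Ocln* was at 15.0%. *Cldn5* was at 1.19% and 0.497% in these classes. The levels were close to these without the shared barcodes, at 135 CPM in ependymal-like and 47.0 CPM in epithelial-like cells. In the deeper ependymal-like cluster, with 96 cells and a median of 14501 UMIs, 82.3% of cells held a UMI of *Ocln* and the level was 138 CPM.

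Among the other classes that touch the vessel, *Ocln* was low in fibroblast-like and astrocyte-like cells but not in cortical pericyte-like cells. Fibroblast-like cells stood at 15.9 CPM in the cortex (10 UMIs) and at 14.1 CPM in the hippocampus (6 UMIs), and their endothelial marker sums were 8.07% and 7.14%. Astrocyte-like cells stood at 4.33 and 0.478 CPM. Cortical pericyte-like cells (164 CPM) stood at 52.5% of the endothelial-like level, near their endothelial marker sum, and hippocampal pericyte-like cells (14.8 CPM) at 4.38%. The unnamed hippocampal cluster with endothelial and pericyte markers held *Ocln* at 208 CPM.

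*Tjp1*, the gene of the scaffold ZO-1, which also serves junctions outside barriers, was found well beyond the endothelium. In endothelial-like cells it stood at 525, 566 and 513 CPM in the cortex (535 CPM summed, SD 28.0) and at 490, 505 and 513 CPM in the hippocampus (503 CPM summed, SD 11.7). Pericyte-like cells stood at 444, 466 and 410 CPM in the cortex (440 CPM summed) and at 350.5, 348 and 328 CPM in the hippocampus (342 CPM summed). The libraries of both classes did not overlap in either preparation. In the hippocampus, pericyte-like cells held 68.1% of the endothelial-like level of *Tjp1* with an endothelial marker sum of 2.20%.

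Fibroblast-like cells followed at 233 CPM in the cortex and 237 CPM in the hippocampus, and their ratios to endothelial-like cells were 0.436 (0.368 to 0.513) and 0.472 (0.384 to 0.575). Astrocyte-like cells stood at 133 and 110 CPM, and their endothelial marker sums were 2.26% and 0.734%, against 24.9% and 21.97% for *Tjp1*. Microglia-like cells, the resident macrophages of brain tissue, stood at 129, 129 and 134 CPM in the cortex (130 CPM summed) and at 108, 111 and 112 CPM in the hippocampus (110 CPM summed). Their endothelial marker sums were 0.515% and 0.4998%, and their *Tjp1* levels were 24.4% and 21.95% of the endothelial-like level. Every microglia-like cluster carried the gene, at 114 to 139 CPM in the cortex and 77.8 to 132 CPM in the hippocampus.

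Macrophage-like cells, in contrast, held little *Tjp1*, at 7.57 CPM in the cortex and 18.1 CPM in the hippocampus. At 1000 UMIs the gene was detected in 0.654% and 0.585% of these cells, against 12.01% and 10.7% of microglia-like cells. At the choroid plexus, epithelial-like cells stood at 10.2, 17.3 and 30.8 CPM (18.8 CPM summed), 0.0374 (0.0281 to 0.0487) of the endothelial-like level, and the deeper of their clusters stood at 15.1 CPM. Ependymal-like cells stood at 79.2 CPM. Without shared barcodes the levels were 15.0 CPM in epithelial-like and 78.1 CPM in ependymal-like cells.

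**Figure D2:**
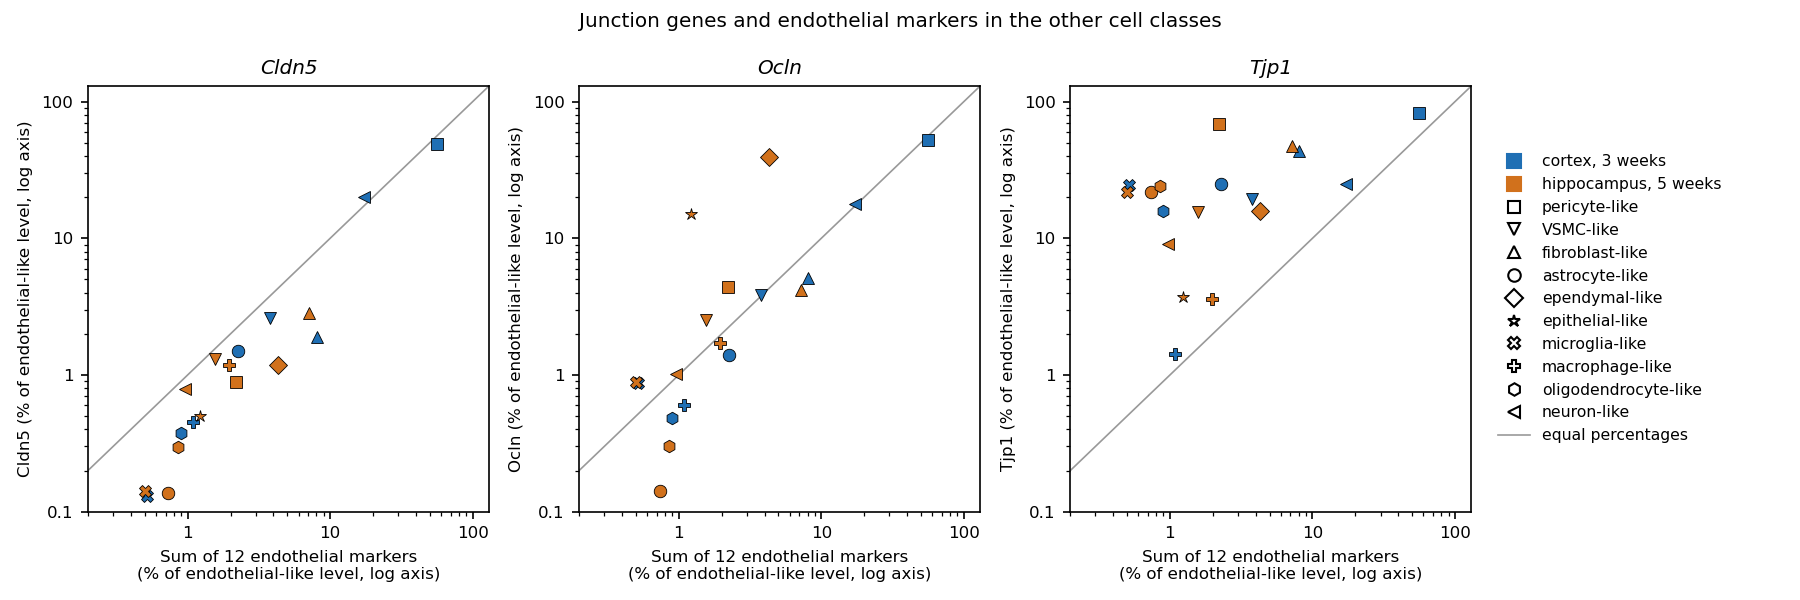
Level of *Cldn5*, *Ocln* and *Tjp1* in each class (y axis, percent of the endothelial-like level of the same preparation) against the sum of 12 endothelial markers in that class (x axis, same unit), with both axes logarithmic and the grey line marking equal percentages. Cortical pericyte-like cells lie near the line for *Cldn5* (48.7% at a marker sum of 55.9%), while ependymal-like cells lie above it for *Ocln* (39.4% at 4.30%) and microglia-like cells for *Tjp1* (24.4% at 0.515%).

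*Cldn10*, which encodes a channel-forming claudin with 2 main isoforms that 3′ counts do not separate, was the member of the astrocytes. It stood at 1371, 1479 and 1571 CPM in cortical astrocyte-like cells (1470 CPM summed) and at 1520, 1532 and 1552 CPM in hippocampal ones (1535 CPM summed). These levels were 34.3-fold and 22.9-fold above the next class, and at 1000 UMIs the gene was detected in 74.7% and 67.8% of astrocyte-like cells. Against endothelial-like cells (10.3 and 17.2 CPM) the ratios were 143 (126 to 163) and 89.3 (79.3 to 101). Of the *Cldn10* UMIs in endothelial-like cells, 43.5% in the cortex and 88.4% in the hippocampus lay in called doublets, and without these cells the endothelial-like levels were 6.08 and 2.15 CPM and the ratios 251.5 (213 to 299) and 737 (522 to 1078).

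The astrocyte-like clusters differed in *Cldn10*. In the hippocampus the main cluster (1290 cells) stood at 1649 CPM, a shallower one (494 cells, median 1560.5 UMIs) at 787 CPM and a small one (92 cells) at 233 CPM. In the cortex the clusters stood at 1493, 1485 and 823 CPM, the last being the one in which every cell was called a doublet. Ependymal-like cells, which share descent with astrocytes, held 5.11 CPM (8 UMIs), 0.333% of the astrocyte-like level, with the sum of 13 astrocyte markers at 12.7%. Hippocampal neuron-like cells stood at 66.9 CPM, and their cluster with the highest level had an astrocyte marker sum of 15.0% and *Cldn10* at 6.00% of the astrocyte-like level. Fibroblast-like cells stood at 42.9 CPM (27 UMIs) in the cortex, or 13.4 CPM without replicate 2, and at 11.8 CPM (5 UMIs) in the hippocampus.

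Among the 7 members, *Cldn1* and *Cldn2* were those with their highest level in the epithelial-like cells of the choroid plexus. *Cldn3*, a claudin of the wider list described below, was also found there, at 29.4 CPM. *Cldn1* encodes a sealing claudin, and *Cldn2* encodes a claudin that forms pores for cations and water in leaky epithelia. In epithelial-like cells *Cldn1* stood at 38.3, 28.4 and 41.4 CPM (36.6 CPM summed, SD 6.78) from 107 UMIs, and *Cldn2* stood at 93.7, 89.0 and 89.1 CPM (90.9 CPM summed, SD 2.66) from 266 UMIs. Against endothelial-like cells, with 1 and 3 UMIs, the ratios of the levels were 589 (104 to 23486) for *Cldn1* and 488 (165 to 2382) for *Cldn2*. Without shared barcodes, 267 epithelial-like cells were left, *Cldn1* stood at 30.4, 22.4 and 34.5 CPM (29.6 CPM summed) and *Cldn2* at 97.1, 74.7 and 72.7 CPM (83.0 CPM summed). Both genes were therefore found in this class in every library with and without those barcodes.

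The epithelial-like class was made of a shallow cluster (625 cells, median 766 UMIs, 88.8% of them with a shared barcode) and a deep one (200 cells, median 7170 UMIs). In the deep cluster *Cldn1* stood at 29.3 CPM and was detected in 15.0% of cells, and *Cldn2* stood at 83.3 CPM and was detected in 29.5%. In the shallow cluster they stood at 69.0 and 125 CPM and were detected in 5.92% and 9.76% of cells. Both were detected together in 23 of the 200 deep cells, or 11.5%, against 4.425% for the product of their separate shares. These shares are of cells that were not thinned to an equal depth. The part of unequal depth in this difference was not tested, so that it does not show a link particular to this pair. At 1000 UMIs the shares in the deep cluster were 1.03% for *Cldn1*, 3.59% for *Cldn2* and 7.18% for *Ocln*. Most cells thus held no UMI of a given gene at that depth. Whether such cells lacked the gene or were too shallow to show it was not tested. Thinning left out 507 of the 825 epithelial-like and 79 of the 211 ependymal-like cells, which had fewer UMIs.

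Elsewhere these genes were at or near 0. *Cldn1* had no UMI in 2692 cortical endothelial-like cells, which allows a share of cells with a UMI of up to 0.111%, and no UMI in 211 ependymal-like cells, which allows up to 1.42%. *Cldn2* had no UMI in cortical endothelial-like cells and 5 UMIs in ependymal-like cells (3.19 CPM). In cortical macrophage-like cells *Cldn1* had 6 UMIs, which lay in 2 cells.

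*Cldn12*, which encodes a widely expressed claudin, was detected at low levels in most classes. Ependymal-like cells stood at 13.2, 18.0 and 17.3 CPM (15.97 CPM summed), above the hippocampal endothelial-like libraries at 6.90, 7.88 and 7.94 CPM (7.57 CPM summed), and the ratio was 2.11 (1.31 to 3.26). Astrocyte-like cells stood at 13.3, 9.13 and 13.3 CPM in the cortex (11.9 CPM summed), above the cortical endothelial-like libraries at 5.72, 6.88 and 5.82 CPM (6.14 CPM summed), a ratio of 1.93 (1.56 to 2.40). In the hippocampus the astrocyte-like level was 8.29 CPM, and the interval of its ratio to endothelial-like cells, 1.09 (0.834 to 1.43), included 1. Fibroblast-like cells stood at 14.3 CPM in the cortex, the highest class level there but not above astrocyte-like cells in every library, and at 7.05 CPM in the hippocampus. Pericyte-like cells stood at 5.63 and 9.17 CPM in cortex and hippocampus. Epithelial-like cells stood at 5.81 CPM and microglia-like cells at 1.48 and 0.901 CPM.

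A difference of at least 2-fold in CPM, after 5 CPM were added to both levels, was then used as a rule of size. It was applied to genes with at least 10 UMIs in the cells compared. *Cldn1* and *Cldn2* reached that minimum only between epithelial-like and endothelial-like cells, so that they could not be called elsewhere. Against endothelial-like cells, *Cldn5*, *Ocln* and *Tjp1* were lower past this rule in fibroblast-like cells of the cortex, where 12.9% of all genes were, and of the hippocampus, where 12.5% were. The same 3 genes were lower in astrocyte-like cells of the cortex (15.3% of all genes) and the hippocampus (16.7%), and *Cldn10* was higher there, with 13.4% and 13.3% of all genes higher. In epithelial-like cells *Cldn5*, *Ocln* and *Tjp1* were lower, as were 30.8% of all genes, and *Cldn1* and *Cldn2* were higher, as were 10.1%. *Ttr* alone stood at 256894 CPM in this class, which lowers the CPM of every other gene there. In ependymal-like cells *Cldn5*, *Ocln* and *Tjp1* were lower, as were 15.5% of all genes, and no tested member was higher (19.6% of all genes were). *Cldn10* was also lower past 2-fold in both classes (log2 difference -1.40 in epithelial-like and -1.13 in ependymal-like cells), but without called doublets neither difference reached 2-fold and both turned (0.25 and 0.55). Without replicate 1 or without replicate 3 it was also short of 2-fold in ependymal-like cells (-0.97 and -0.76). *Cldn10* was higher in cortical fibroblast-like cells, in which 11% of all genes were higher, but not in every library, and the log2 difference of 1.65 was 0.17 without replicate 2. For *Tjp1* the difference of hippocampal fibroblast-like cells, -1.07, was -0.76 and short of 2-fold without replicate 2.

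Endothelial-like cells under 15% mitochondrial UMIs were clustered again, and the other cells of the class were left out here. Within the endothelium, subclusters were named arterial-like, capillary-like, venous-like and, in the cortex only, angiogenic-like. The segments held 245, 1102, 351 and 230 cortical cells, and 451, 1053 and 151 hippocampal cells in the first 3 of them. *Cldn5* stood at 6524, 7024 and 7700 CPM in cortical arterial-like cells (7066 CPM summed) and at 8919, 9794 and 10370 CPM in cortical capillary-like cells (9717 CPM summed). In the hippocampus the arterial-like libraries stood at 6610, 6528 and 6292 CPM (6476 CPM summed) and the capillary-like libraries at 8764, 8635 and 8576 CPM (8661 CPM summed). The arterial-like libraries all lay below the capillary-like ones in both preparations. Relative to all other endothelial-like cells, the arterial-like level was 0.823 (0.810 to 0.836) in the cortex and 0.817 (0.805 to 0.828) in the hippocampus, and the capillary-like level was 1.24 (1.22 to 1.25) and 1.29 (1.27 to 1.30). The other endothelial-like cells include the subclusters without a segment name. Some of those carried markers of astrocytes, pericytes, microglia or, in the cortex, erythroid cells. Their part in the segment ratios was not tested.

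*Ocln* and *Tjp1* followed the same order from arterial-like to capillary-like cells. *Ocln* stood at 311, 257 and 290 CPM in cortical arterial-like and 361, 414 and 383 CPM in cortical capillary-like cells, and at 323, 303 and 281 against 398, 407 and 367 CPM in the hippocampus. Capillary-like ratios to the other endothelial-like cells were 1.38 (1.31 to 1.44) and 1.32 (1.25 to 1.39) for *Ocln* and 1.18 (1.14 to 1.22) and 1.15 (1.102 to 1.204) for *Tjp1*, and each was above 1 in 3 of 3 libraries. *Tjp1* was highest in venous-like cells, at 615, 660 and 573 CPM in the cortex and 617, 647 and 716 CPM in the hippocampus. Its venous-like libraries overlapped the capillary-like ones in the cortex (598, 628 and 571 CPM) but not in the hippocampus (531, 554 and 545 CPM). For *Cldn5*, venous-like cells stood at 8350 CPM in the cortex, between arterial-like and capillary-like cells, and at 9237, 8619 and 8959 CPM in the hippocampus, where they overlapped capillary-like cells. *Mfsd2a*, a lipid transporter of the blood-brain barrier that was also a naming marker, stood at 599.5 and 473 CPM in capillary-like and 377 and 285 CPM in arterial-like cells. The segment names depended on the resolution of the clustering. At a finer resolution (1.0) a cortical subcluster of 487 cells was named venous-like on 3 markers, beside another of 185 cells on 11 markers. The cortical capillary-like subclusters then held 312 and 183 cells. In the hippocampus a subcluster of 236 cells then had fewer than 3 markers of any segment and no name. The hippocampal arterial-like subclusters held 252, 26 and 25 cells at that resolution. The segment levels and orders given above are those of the coarser naming only.

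**Figure D3:**
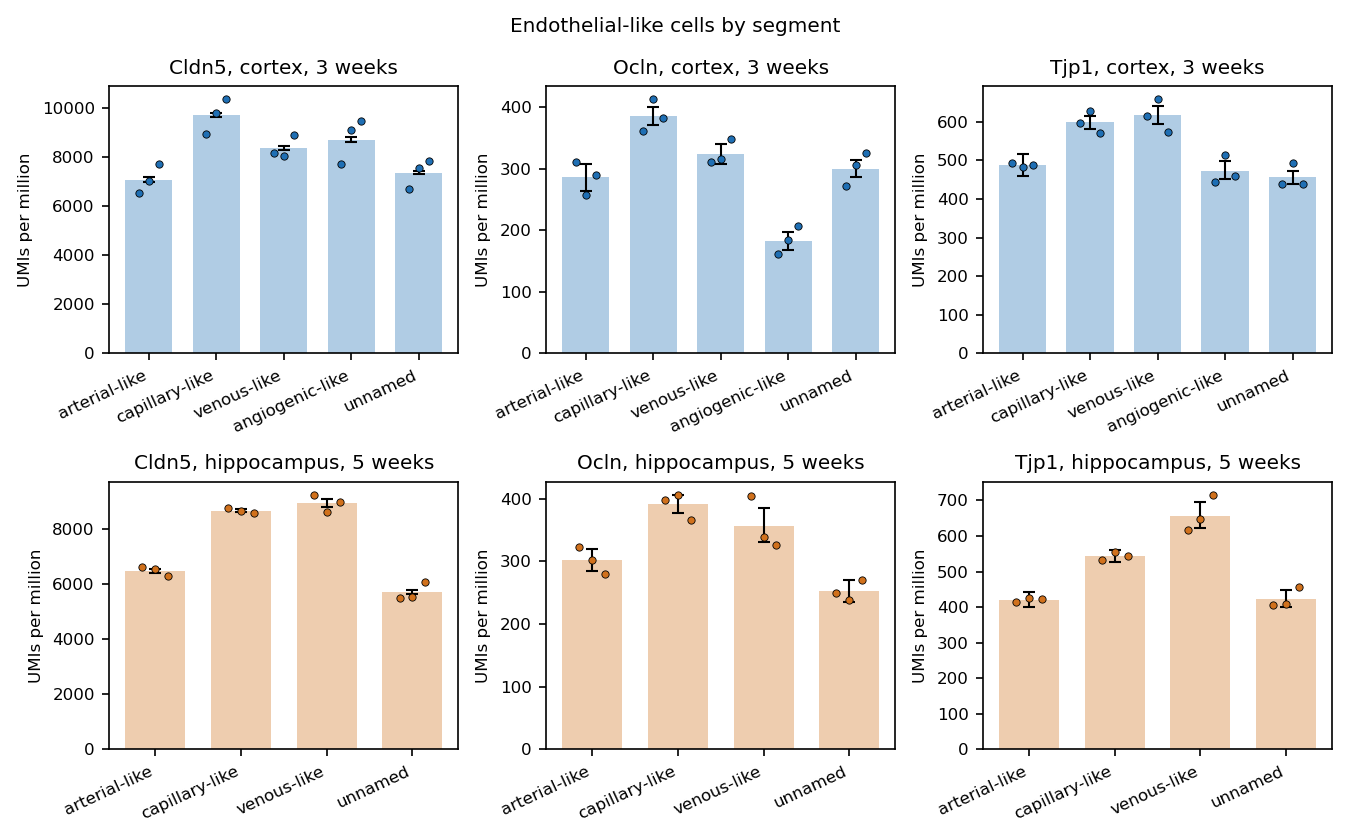
Level of *Cldn5*, *Ocln* and *Tjp1* (CPM, from 0) in the endothelial segments of the cortex and the hippocampus; bars are the 3 libraries summed with exact 95% Poisson intervals and points are the technical replicates. Capillary-like bars exceed arterial-like bars for *Cldn5* in both preparations (9717 against 7066 CPM and 8661 against 6476 CPM), and the angiogenic-like bar is the lowest of the cortex for *Ocln* (182 CPM).

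The largest segment difference among the 3 endothelial members was that of *Ocln* in the angiogenic-like cells of the cortex, which were named from genes of sprouting tips. It stood at 162, 185 and 207 CPM there (182 CPM summed), against 335 CPM in the other endothelial-like cells, a ratio of 0.545 (0.501 to 0.592) that was below 1 in 3 of 3 libraries and short of 2-fold. In the same cells *Cldn5* was at 1.04 (1.03 to 1.05) and *Tjp1* at 0.868 (0.823 to 0.914) of the other endothelial-like cells. The sum of the 12 endothelial markers was also lower in angiogenic-like cells, at 57.6% of the class level, and its part in the lower *Ocln* level was not tested.

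A cluster of 129 cortical endothelial-like cells led by *Adm*, *Apln* and *Angpt2*, genes of hypoxic or sprouting endothelium, held *Ocln* at 88.2, 104 and 102 CPM (97.8 CPM summed), *Cldn5* at 7820 CPM and *Tjp1* at 426 CPM, with the endothelial marker sum at 42.8%. At a finer resolution 2 subclusters were named angiogenic-like. Together they held more cells than the 230 of the segment above, so that they are not a split of it alone. The subcluster of 117 cells, led by *Apln*, stood at 96.4 CPM of *Ocln*, and that of 127 cells, led by *Htra3*, at 297 CPM. In the hippocampus a subcluster led by *Apln* had 18 cells, too few to be named, and held *Ocln* at 110, 147 and 205 CPM (146 CPM summed, 28 UMIs) and *Cldn5* at 7730 CPM, with the marker sum at 60.6%. These small groups were singled out after their values had been seen.

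A second small hippocampal subcluster, also singled out after its values were seen, lacked the profile of the barrier. Its 12 cells were led by *Plvap*, the gene of the diaphragm protein of fenestrated vessels, followed by *Esm1*. They held *Plvap* at 3830 CPM and no UMI of *Mfsd2a*. *Cldn5* had 3 UMIs in them (37.1 CPM, 7.64 to 108) and *Ocln* had none, which allows up to 25% of cells with a UMI, while *Tjp1* stood at 136 CPM from 11 UMIs. The endothelial marker sum was 76.4% of the class level, with 1 of the 12 markers at 0. Of the 326 *Plvap* UMIs in hippocampal endothelial-like cells, 310 lay in these 12 cells, and the level in the whole class was 20.2 CPM, against 0.167 CPM in the cortex.

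*Cldn10* was the only member past 2-fold between a segment and the other endothelial-like cells, among those with enough UMIs (all but *Cldn1* and *Cldn2*). It was lower in cortical arterial-like cells (1.28 against 10.7 CPM, with 4.42% of all genes past 2-fold in either direction and 1.95% lower), capillary-like cells (2.31 against 13.04 CPM, 1.93% of all genes and 1.91% lower) and angiogenic-like cells (2.33 against 10.98 CPM, 4.67% of all genes and 2.78% lower), whereas 0 members were past 2-fold in venous-like cells (2.82% of all genes). In the hippocampus it was lower in arterial-like cells (1.79 against 22.04 CPM, 4.29% of all genes), capillary-like cells (0.568 against 30.1 CPM, 3.94% of all genes and 3.82% lower) and venous-like cells (1.60 against 19.1 CPM, 3.94%). The UMIs lay mainly in endothelial subclusters without a segment name, which stood at 29.5 CPM in the cortex and 82.2 CPM in the hippocampus. In 2 of these subclusters the sum of the astrocyte markers was 17.9% (cortex) and 35.2% (hippocampus) of the astrocyte-like level, where *Cldn10* was at 7.23% and 26.2%. Without replicate 1, *Cldn10* was past 2-fold in cortical venous-like cells and not in angiogenic-like cells. Without called doublets it was not past 2-fold in any segment of either preparation.

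Between the preparations, the members of the endothelium differed little. Over the genes listed in both preparations, 0 of the tested members (all but *Cldn1* and *Cldn2*) were past 2-fold in hippocampal against cortical endothelial-like cells. The share of all genes past it was 1.61%. The hippocampal level was 0.897 (0.890 to 0.903) of the cortical level for *Cldn5*, 1.08 (1.04 to 1.12) for *Ocln* and 0.938 (0.912 to 0.965) for *Tjp1*. The replicates of the preparations overlapped for *Ocln* and *Tjp1* but not for *Cldn5*, for which every hippocampal library lay below every cortical one. In microglia-like cells *Tjp1* was at 0.844 (0.810 to 0.880) of the cortical level, without overlap of the libraries, and 0 members were past 2-fold (1.04% of all genes). In astrocyte-like cells *Cldn10* was at 1.04 (1.02 to 1.06), and *Cldn5* was the 1 member past 2-fold (10.4 against 126 CPM, 2.38% of all genes), its cortical level being that of the doublet cluster described above. In fibroblast-like cells, with 11.9% of all genes past 2-fold, *Cldn10* was the 1 member, from 5 and 27 UMIs (log2 difference -1.52, or 0.44 without replicate 2). The direction of *Cldn5* in these cells turned without replicate 1, so that the small classes gave no stable order.

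To place the members among their partners, a list of 55 further genes of tight and adherens junctions was described by the same rule. In cortical fibroblast-like cells 5 genes were higher and 12 lower of 34 with enough UMIs, and the median log2 ratio to endothelial-like cells was -0.69, against -0.14 over all genes. In the hippocampus 5 were higher and 15 lower of 34 (median -0.50, against -0.10). In astrocyte-like cells 2 were higher and 18 lower of 36 in the cortex (median -0.97, against -0.02) and 2 were higher and 15 lower of 37 in the hippocampus (median -0.60, against -0.08). In epithelial-like cells 9 were higher and 22 lower of 41 (median -1.26, against -0.48), and in ependymal-like cells 6 were higher and 15 lower of 37 (median -0.66, against -0.07). In hippocampal fibroblast-like cells 12.3% of all genes were higher. The other shares of all genes past the rule in each direction are those given for the members above.

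Among the genes that were lower in these classes, *Esam*, an immunoglobulin-type adhesion molecule of endothelial junctions, stood at 804 CPM in hippocampal endothelial-like cells and at 6.49 CPM in epithelial-like and 15.3 CPM in ependymal-like cells. *Cdh5*, the cadherin of endothelial adherens junctions, stood at 550.1 CPM against 5.13 and 6.39 CPM in these classes. *Lsr*, which encodes the tricellular junction protein angulin-1, stood at 334 CPM against 23.6 and 15.3 CPM. Of the 6 immunoglobulin-type molecules tested, 4 were lower in each of these classes. The share of all genes lower was 30.8% in epithelial-like and 15.5% in ependymal-like cells. *Cxadr*, of the same type, was higher in both classes and *Jam3* was higher in ependymal-like cells. In fibroblast-like cells *Esam* stood at 28.6 and 23.5 CPM and *Lsr* at 49.2 and 35.3 CPM in cortex and hippocampus.

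Of the 9 genes that were higher in epithelial-like cells, 6 had the largest folds after 5 CPM were added. *Crb3*, a polarity protein of the apical membrane, stood at 70.1 CPM against 0.0621 CPM in endothelial-like cells. *Cldn3*, a sealing claudin, stood at 29.4 against 0.0621 CPM, *Tjp3*, which encodes the scaffold ZO-3, at 26.3 against 0.124 CPM, and *Cxadr*, an immunoglobulin-type adhesion molecule of epithelia, at 23.9 against 0.310 CPM. *Marveld3* stood at 11.6 against 0.0621 CPM, and *Cgn*, which encodes cingulin, at 10.3 CPM against no UMI. Each of the 1-UMI levels in endothelial-like cells rests on a count too small to give a stable ratio.

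In ependymal-like cells *Cxadr* stood at 46.6 CPM and *Tjp3* at 17.9 CPM, *Jam3*, a junctional adhesion molecule, at 84.3 against 10.5 CPM, and *Mpdz*, a multi-PDZ scaffold, at 109 against 24.8 CPM. *Pard6b*, a polarity protein, stood at 8.31 CPM against no UMI. In astrocyte-like cells the 2 higher genes of each preparation were *Jam3*, at 46.3 CPM in the cortex and 48.6 CPM in the hippocampus, and *Nectin3*, an adherens junction molecule, at 56.3 and 60.6 CPM. In fibroblast-like cells *Cxadr* (124 and 30.6 CPM), *Cldn11* (41.3 and 51.7 CPM), *Jam3* (49.2 and 49.4 CPM), *Nectin1* (15.9 and 21.2 CPM) and *Nectin3* (46.04 and 39.97 CPM) were higher in both preparations.

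**Figure D4:**
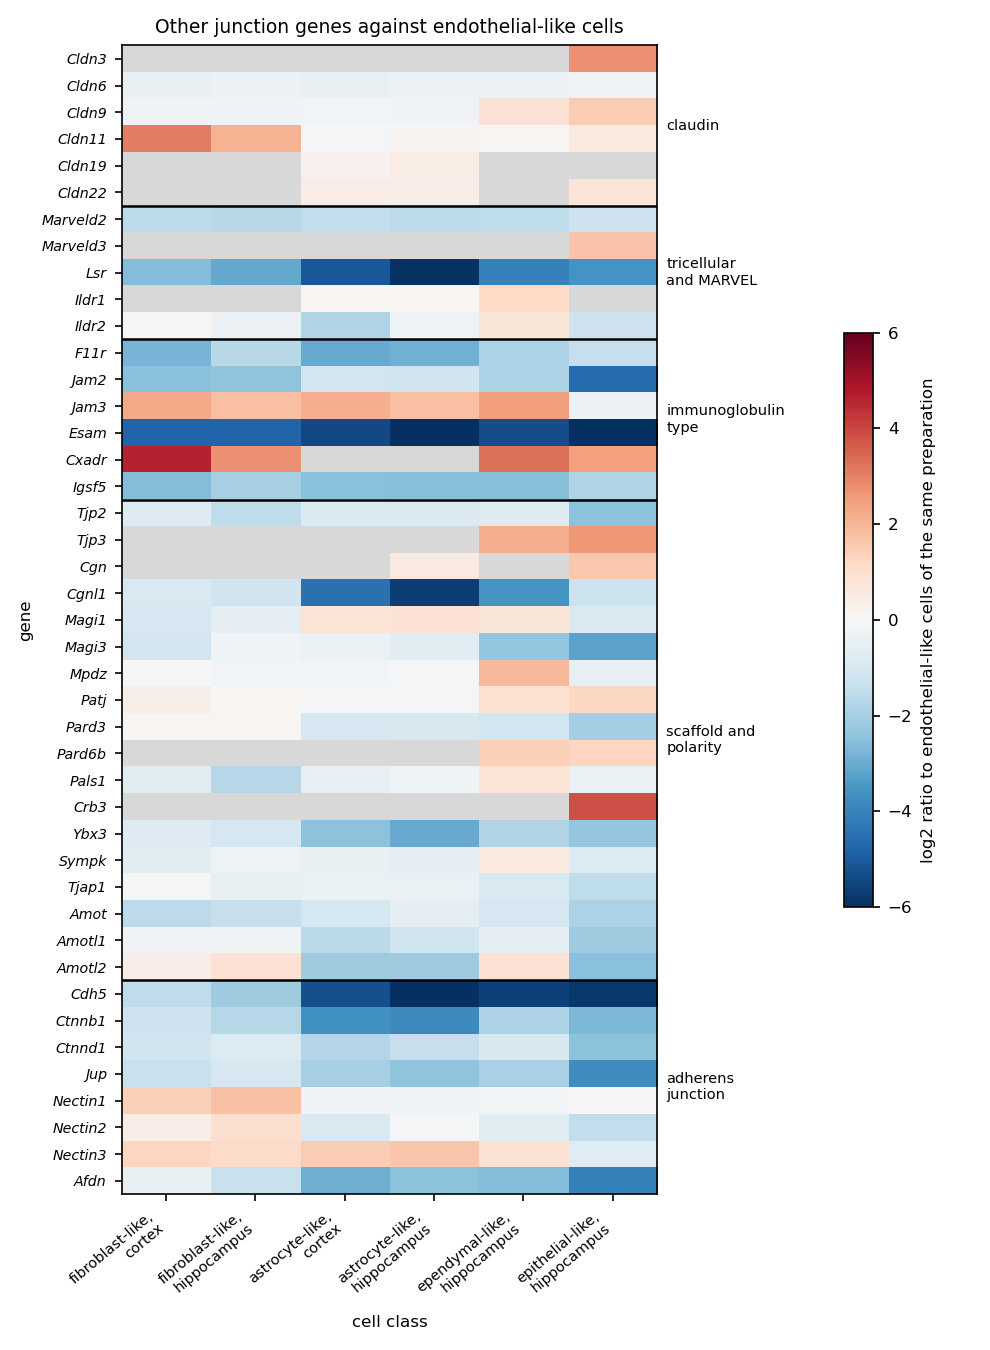
Log2 ratio of the level in each class to endothelial-like cells of the same preparation, after 5 CPM were added, for the 43 genes of the wider junction list that had enough UMIs in at least 1 comparison; grey squares had fewer than 10 UMIs and colours stop at a log2 of 6 in either direction, which 3 squares exceed. *Esam*, *Cdh5* and *Lsr* are lower in all classes shown, and *Crb3* and *Cldn3* are higher in epithelial-like cells.

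Along the endothelial segments few genes passed the rule, in the wider list as among all genes. In the cortex 0 of 33 tested genes were past 2-fold in each of the 4 segments, in which 1.93% to 4.67% of all genes were, and in the hippocampus 0 were past it in capillary-like cells, with 3.94% of all genes. There, 1 gene was lower in arterial-like cells (*Igsf5*, 10.7 against 28.7 CPM, with 2.65% of all genes lower) and 1 in venous-like cells (*Jam3*, 3.196 against 11.5 CPM, with 3.04% lower). Between hippocampal and cortical endothelial-like cells, where 1.61% of all genes were past 2-fold, 1 of 35 was, the myelin claudin *Cldn11* (8.45 against 0.586 CPM). Its level in oligodendrocyte-like cells was 4518 CPM in the cortex and 5690 CPM in the hippocampus, and hippocampal microglia-like (9.85 CPM) and astrocyte-like cells (9.97 CPM) held it as well. The cortical levels were 1.46 CPM in microglia-like and 0.169 CPM in astrocyte-like cells. The hippocampus held 1075 oligodendrocyte-like cells and the cortex 66, and the part of free RNA in these levels was not tested.

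Finally, the genes whose levels were most like those of each member were listed over 25 class profiles, as Pearson's r of log2(CPM + 10) among 11313 genes. These profiles share libraries, and both preparations contribute most classes, so that r is a description without a test. For *Cldn5* these were *Ly6c1* (r 0.987), *Slco1a4* (0.980) and *Adgrl4* (0.976), genes of brain endothelium of which *Ly6c1* and *Slco1a4* were naming markers. For *Ocln* they were *Paqr5* (0.976), *Rassf9* (0.970) and *Slc16a4* (0.939), and for *Tjp1* they were *Yes1* (0.863), *Ptprm* (0.857) and *Plcg1* (0.852). For *Cldn10* they were the astrocyte genes *Ntsr2* (0.967), *Slc6a11* (0.966) and *Btbd17* (0.959). For *Cldn2* they were *Clic6* (0.993), *Wfdc2* (0.986) and *Cox8b* (0.983), and for *Cldn12*, at low levels, *Dgcr6* (0.876), *Ift122* (0.871) and *Med25* (0.857). *Cldn1* had too few UMIs to be ranked. Of the genes listed, *Ntsr2* was also a naming marker of astrocyte-like, *Clic6* of epithelial-like and *Slc16a4* of capillary-like cells. Likeness to a naming marker follows in part from the naming itself. Among the members, r was 0.918 for *Cldn1* with *Cldn2*, 0.856 for *Cldn5* with *Ocln* and 0.648 for *Cldn5* with *Tjp1*. *Cldn1* (129 UMIs in all) and *Cldn2* stood at 36.6 and 90.9 CPM in epithelial-like cells. In no other class did they exceed 5.68 and 3.19 CPM. Their r of 0.918 and the r values listed for *Cldn2* therefore rest largely on the epithelial-like profile.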

How the data were processed

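Counts of UMIs per gene and cell barcode were deposited by the authors as filtered matrices for 6 libraries, per the labels from Cell Ranger 5.0.1 with mm10 (the matrix headers name 3.0.1 for the cortex and 3.1.0 for the hippocampus), with no barcode under 500 UMIs. Cells with 250 to 6000 genes and under 25% mitochondrial UMIs were kept. A limit of 15% was used only where endothelial-like cells were clustered again into segments. Replicates were integrated in Seurat 5.3.0 (R 4.3.3) by canonical correlation analysis (2000 variable genes without junction genes, 30 components, resolution 0.5). A cluster was named from at least 3 markers, each in at least 20% of its cells and 2-fold above the rest. It stayed unnamed where its leading genes held more markers of another class. The same held where its UMIs were few and no leading gene was a marker of its class. Segments used 1.5-fold and a lead of 2 markers, thresholds set after output was seen. Called doublets (Scrublet in scanpy 1.11.5, expected at 0.8% per 1000 barcodes) were kept unless stated.

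Levels are CPM of UMIs summed per class, with exact Poisson intervals for ratios and Clopper-Pearson or 3-count limits for shares (SciPy 1.17.1). With 1 biological sample per group, no test was made. Named genes were the 7 members, up to 6 wider-list genes per direction by fold, the 3 most alike genes for members with at least 200 UMIs, and *Plvap*, *Mfsd2a* and *Ttr* as checks. Members and lists were chosen with earlier results of these data known. The fold computation was tested on simulated data. GENCODE M21 and RefSeq (GRCm38) gave positions and sequences. Alternatives covered clustering, filters, doublets, shared barcodes, scaling, offsets and left-out replicates.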

Additional observations from a re-analysis of the deposited data

Results flagged for a closer look

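Levels outside the named classes were looked at more closely where a cluster without a name held a member at more than 1 part in 4 of its highest class level. A cortical cluster of 388 cells with a median of 1258.5 UMIs had fewer than 3 markers of any class. It held *Cldn5* at 3294 CPM, *Ocln* at 176 CPM and *Tjp1* at 315 CPM, its endothelial marker sum was 46.7% of the endothelial-like level, and 21.1% of its cells were called doublets. A hippocampal cluster of 177 cells with a median of 15318 UMIs met the marker rule for 12 endothelial and 9 pericyte markers and was led by the pericyte genes *Rgs5* and *Ndufa4l2*. It held *Cldn5* at 4132 CPM, *Cldn12* at 8.69 CPM, *Ocln* at 208 CPM and *Tjp1* at 434 CPM, with an endothelial marker sum of 60.4%. Both clusters were left out of every comparison above.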

How the results depend on the processing

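The 3 members highest in endothelial-like cells stayed the same in number under all 14 alternatives run for that count, and of the summary counts 546 of those recomputed under an alternative were within 1.5 times the reported count or equal to it while 33 were not. Most of the latter concerned *Cldn10* in endothelial segments. In the hippocampus its count fell from 1 to 0 in arterial-like and venous-like cells with junction genes kept among the variable genes, replicates merged, clustering at resolution 1.0, a mitochondrial limit of 10%, cells classed by their own marker UMIs or called doublets left out. In the cortex it fell to 0 in arterial-like, capillary-like and angiogenic-like cells with the 10% limit or without doublets, and without doublets also in hippocampal capillary-like cells. At resolution 1.0 within endothelial-like cells the count was 0 for cortical capillary-like and 1 for cortical venous-like cells, and an offset of 1 CPM also gave 1 for the latter. With each replicate left out, both the cortical venous-like and the angiogenic-like count ranged from 0 to 1. The cause of these shifts was not tested.

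For the wider list, the higher genes numbered 10 in ependymal-like cells with the mean over cells of CPM and 3 with a minimum of 50 UMIs, against 6, and 5 in epithelial-like cells with that minimum, against 9. An offset of 1 CPM gave 4 higher genes in cortical and 5 in hippocampal astrocyte-like cells, against 2. The log2 difference of *Cldn5* between hippocampal and cortical astrocyte-like cells, -3.10, turned to 2.13 with the 10% limit and to 0.15 without doublets, and that of Cldn10, hippocampal against cortical fibroblast-like cells, which was -1.52, turned to 0.44 without replicate 2 (-3.67 to 0.44 with each replicate left out). The lower *Cldn10* against hippocampal endothelial-like cells turned to 0.25 (epithelial-like) and 0.55 (ependymal-like) without doublets, and to 0.21 in ependymal-like cells with the 10% limit. It stayed negative but fell short of 2-fold in both classes with junction genes kept, replicates merged, resolution 1.0 or cells classed by their own marker UMIs, and in epithelial-like cells with the 10% limit. The lower *Tjp1* fell short of 2-fold in hippocampal fibroblast-like cells with the 10% limit, own marker UMIs or the mean over cells, and in cortical ones with that mean. The count of higher members became 1 in hippocampal fibroblast-like cells without doublets (*Cldn10*) and in ependymal-like cells with the mean over cells (*Cldn12*), against 0, and in cortical fibroblast-like cells 2 with an offset of 1 CPM and 0 without replicate 2, against 1. Of the single values recomputed, 2093 moved by no more than the replicate spread, 209 by more, and 6 that were past 2-fold turned in sign. Differences short of 2-fold also changed sign, such as that of *Cldn5* between fibroblast-like cells without replicate 1, and are not among these 6. Leaving out cells under 2000 UMIs was added after the data had been seen. No paired analysis was possible because each group is 1 pool of cells run as technical replicates, and no test was made. Depth limits *Cldn1*, *Cldn2* and *Cldn12*, whose class levels rest on few UMIs per cell.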

Other observations

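In classes that belong to no barrier comparison, *Tjp1* stood at 84.2 CPM in cortical and 121 CPM in hippocampal oligodendrocyte-like cells and at 103 and 78.8 CPM in cells like vascular smooth muscle. *Cldn5* stood at 219 and 98.3 CPM in the latter cells, where a few cells set the level: 20 of the 205 cortical cells held 97.1% of its UMIs and 9 of the 89 hippocampal cells held 96.0%. Of the cortical UMIs 78.3% lay in called doublets.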
